A study of Mus musculus with 3 samples.

Results

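The cells described here are macrophages of ectopic tissue masses in mice that carry RNA of at least 3 of the genes Stab1, Cbr2, Slco2b1, Hpgds and Tslp. They were chosen from measured values. A cell first had to pass as a macrophage: at least 500 UMIs and 300 genes, at most 15% of UMIs from mitochondrial genes, under 1% of UMIs from the collagens Col1a1, Col1a2 and Col3a1, at least 1 UMI of the macrophage receptors Csf1r or Adgre1, and no UMI of the lymphocyte genes Cd3e or Cd79a. A UMI is a molecular tag, so that 1 UMI stands for 1 captured RNA molecule. A member then had at least 1 UMI of at least 3 of the 5 rule genes, and UMIs of fewer than 2 of Lyve1, Fcna and Cd209f. There were 2006 members among 12414 gated macrophages and 21148 cells in all. The 1374 gated macrophages with 2 or more of Lyve1, Fcna and Cd209f, called the Lyve1 set, and the 9034 other gated macrophages served for comparison.

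The study asked about activin A, a TGF-beta family ligand that cells secrete, in acquired heterotopic ossification, the formation of bone in soft tissue. CD1 mice, an outbred stock, received implants of Matrigel, a gel of basement membrane proteins, and the masses were collected on day 5 and taken apart into single cells. The Matrigel library came from implants of the gel alone. The IgG library came from gel with recombinant human BMP2, a growth factor that induces ectopic cartilage and bone, in mice given control IgG, and the antibody library from the same BMP2 gel in mice given the activin A neutralizing antibody that the labels call nAct Ab. All 3 groups shared the Matrigel carrier. The mice given gel alone had neither BMP2 nor IgG according to their label, so the 2 cannot be told apart in that comparison. The sources used here do not say how many animals were pooled per library. Each group was 1 library. No test between groups was therefore possible, and every comparison is one of single libraries. All intervals are at the 95% level (exact Poisson for levels, exact conditional binomial for ratios, Clopper-Pearson for shares) and cover counting error only.

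Resident macrophages of connective tissue, heart, skin and other organs share a set of scavenger receptors and secreted factors, among them Mrc1, Folr2, Cd163, Gas6, Pf4 and complement C1q. They clear dead cells, plasma proteins and iron, and part of them persists without constant replacement from blood monocytes. Monocytes that enter a wound carry Ccr2 and adhesion and matrix genes, and can take up parts of the resident programme with time.

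All 5 rule genes are described first, with no test, since they chose the cells. Stab1 encodes stabilin-1, a scavenger receptor that takes up modified lipoproteins and matrix proteins (GRCm38, chromosome 14, 31139013 to 31168641, minus strand). Its level in the members was 1669 CPM with Matrigel, 1033 with IgG and 650 with antibody, where CPM are the summed UMIs of a gene, scaled to the same fixed total in each class and library. Cbr2, a carbonyl reductase (chromosome 11, 120729489 to 120732114, minus strand), stood at 1555, 933 and 693 CPM in the same order. Both were highest in the Matrigel members and were found in at least 96.1% of the members of each library. Slco2b1, a transporter of organic anions (chromosome 7, 99657804 to 99711340, minus strand), stood at 176, 65.9 and 43.6 CPM. The alarmin cytokine Tslp, thymic stromal lymphopoietin, stood at 162, 57.1 and 41.7 CPM, and the members held 43.3%, 42.0% and 29.9% of all Tslp UMIs of their library. Hpgds, the haematopoietic prostaglandin D synthase (chromosome 6, 65117293 to 65144908, minus strand), was the rule gene with the most even level, at 198, 202 and 144 CPM. The rule was read at each cell's own depth, and the members' median depth was 3281.5, 4733 and 6549 UMIs. A qualifying UMI is therefore a larger CPM in the shallower Matrigel members. Hpgds was found in 52.0%, 74.8% and 72.4% of members, so the rule bears on its evenness too. How far the choice of cells set these levels was not tested. Their order across libraries therefore describes the chosen cells only.

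The genes by which a cell qualified differed between the libraries. The combination of Stab1, Cbr2 and Hpgds alone made up 24.1% of the Matrigel members, 56.0% of the IgG members and 53.0% of the antibody members. With Slco2b1 in place of Hpgds the shares were 23.5%, 11.2% and 11.5%, and with Tslp in its place 16.5%, 11.5% and 12.5%. In both BMP2 libraries most members thus had neither a UMI of Slco2b1 nor one of Tslp, against 24.1% of the Matrigel members. Taken singly, each gene was found in a minority of the members of every library. Slco2b1 was found in 48.5%, 25.5% and 26.9% of members and Tslp in 40.9%, 23.0% and 25.8%. At 1000 UMIs per cell, with the 8 Matrigel members below that depth left out, Slco2b1 was found in 18.2%, 6.72% and 6.09% of members, against at most 0.704% of collagen-high cells, which have at least 5% of their UMIs from the 3 collagens. The name Slco2b1 therefore describes the Matrigel members better than those of the BMP2 libraries, which are called members here by the rule alone. Exactly 3 of the 5 genes were found in 918, 297 and 220 members, 4 in 382, 53 and 54, and all 5 in 70, 7 and 5. Just outside the rule, with exactly 2 of the 5, lay 1098, 592 and 606 gated macrophages, whose Stab1 level was 1231, 764 and 521 CPM and whose Slco2b1 level was 28.7, 8.45 and 3.26 CPM.

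Of the 12 macrophage markers listed, Csf1r and Adgre1 were part of the gate and check nothing. The other 10 (Cd68, Fcgr1, Mertk, Itgam, C1qa, Lyz2, Cd14, Fcgr3, Tyrobp and Aif1) stood at 10 CPM or more in each library. Of the 12 endothelial markers, checked because liver-type and lymphatic endothelium also carry stabilin-1, only Pecam1 reached 10 CPM, and Cldn5 and Emcn were at 0 in all 3 libraries. Of the 8 epithelial markers, Epcam, Krt5, Krt14, Krt8, Krt18 and Trp63 were at 0 in all 3, and Cdh1 reached 10 CPM in the IgG members. Markers of T and NK cells summed to 25.3, 84.1 and 29.0 CPM, with Cd4 at 10 CPM or more in each library. The B cell markers summed to 210, 127 and 71.2 CPM, with Cd79b and Ighm at 10 CPM or more in each library, and the dendritic cell markers to 32.7, 37.4 and 23.4 CPM, with Cd209a alone at 10 CPM or more. At least 3 of the 5 rule genes were found in 20 of 1520, 1 of 696 and 3 of 294 collagen-high cells, at medians of 9321.5, 16419.5 and 17333.5 UMIs, deeper than the members at 3281.5, 4733 and 6549. None of the 495 Cd79a-positive cells of the antibody library did so, which allows a share of up to 0.606% by the limit of 3 counts. Their median was 1603 UMIs, shallower than the antibody members, so rule genes were harder to detect in them. The libraries shared 19, 16 and 7 cell barcodes pairwise, and no member had a barcode in common with a member of another library.

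The members made up a smaller part of the macrophages in the BMP2 masses. They were 1370 of 6010 gated macrophages with Matrigel (22.8%, 21.7 to 23.9), 357 of 3261 with IgG (10.9%, 9.90 to 12.1) and 279 of 3143 with antibody (8.88%, 7.91 to 9.93). Of all filtered cells they were 14.9%, 5.99% and 4.68%. Because a deeper cell shows more genes, the rule was also read after every cell with at least 2000 UMIs was thinned to that depth. The shares were then 19.3% (18.1 to 20.4), 5.99% (5.11 to 6.96) and 3.18% (2.56 to 3.89). The Matrigel library held the highest share at either depth. The intervals of the IgG and antibody libraries overlapped at full depth, separated at equal depth, and with at least 4 of the 5 genes asked for the 2 shares came out in the other order, at 1.84% and 1.88%. The Lyve1 set made up 16.4%, 3.96% and 8.27% of gated macrophages, and 12.7%, 2.46% and 4.32% at 2000 UMIs. Its antibody share was above its IgG share, whereas that of the members was not; the difference between the sets has no replicate.

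**Figure D1:**
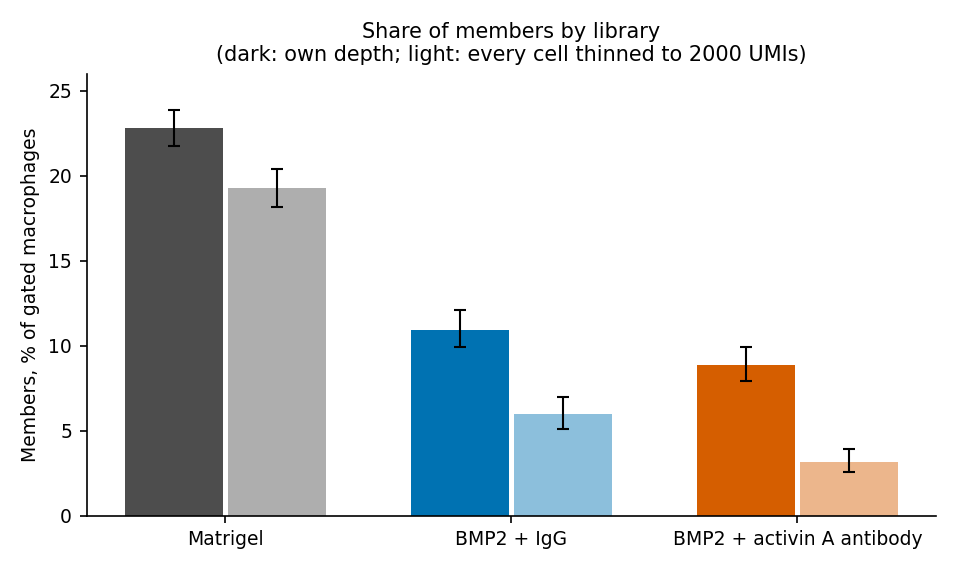
Members as a percentage of gated macrophages in each library (y axis, percent), at each cell's own depth (dark bars) and with cells thinned to 2000 UMIs before the rule was read (light bars); error bars are 95% Clopper-Pearson intervals for counting error. The Matrigel bars stand at 22.8% and 19.3%, above all bars of the BMP2 libraries.

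The members of the 3 libraries did not lie in the same clusters. All gated macrophages were clustered on variable genes without the rule and gate genes, which gave 23 clusters, called here by number. Cluster 9, led by Igf1, Gas6, Arhgap19 and Nxpe5, held 712 Matrigel members (52.0%), 61 IgG members (17.1%) and 7 antibody members (2.51%), and 53.4% of its cells were members. Cluster 5, led by Fcrls and Tanc2 with MHC class II genes, held 15.5% of the Matrigel members, and cluster 8, led by Cd83, Pmp22 and Gpr183, held 14.4%. Cluster 10, led by Enpp2, Cxcl9, Ccl5 and Serpina3g, held none of the Matrigel members but 24.4% of the IgG and 30.1% of the antibody members. Cluster 15, led by Clec4d, Cd93, Mgst1 and Cxcr4, held 1 Matrigel member, 23.8% of the IgG and 46.2% of the antibody members. Clusters 10 and 15 were almost without Matrigel cells of any kind, with 2 of 689 and 8 of 991 cells. The clusters were built on the same genes that are compared below, so that their leading genes are a description. Each comparison between libraries below sets cells of partly different clusters side by side, and values within a cluster are given for some genes and lists. In clusters 10 and 15 together, 5.5% of 6306 measured genes were higher and 7.72% lower with antibody than with IgG. Among the members of cluster 9, 6.98% of 7669 measured genes were higher and 21.5% lower in IgG than in Matrigel. These members had 2551901 UMIs in Matrigel and 284824 in IgG. A gene was measured with at least 30 UMIs in the group that held more UMIs of it, whichever had the higher level. Genes of low level could therefore enter more readily as lower in IgG than as higher. All counts of genes within cluster 9 given below carry this limit.

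**Figure D2:**
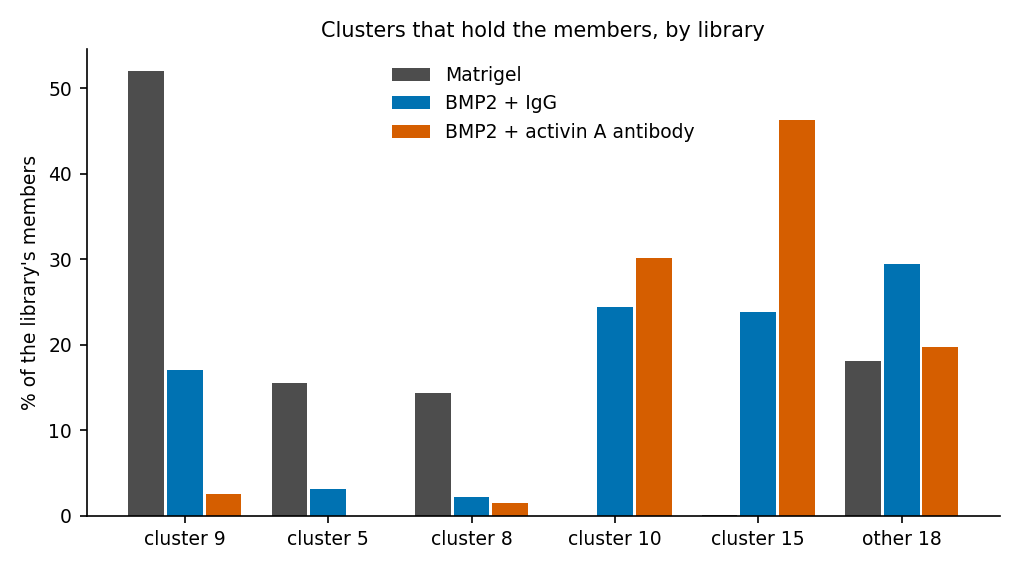
Percentage of each library's members (y axis) that lay in clusters 9, 5, 8, 10 and 15 and in the other 18 clusters together (x axis), with 1 bar per library. Matrigel members lay mostly in cluster 9 (52.0%), and the largest part of the antibody members in cluster 15 (46.2%).

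Set beside the other gated macrophages, the members had more RNA of secreted factors and receptors of resident macrophages and less of antigen-presenting and monocyte genes. This is the contrast that the rule made, so it is a description. Of 10103 genes measured in all 3 libraries, 3.81% were at least 1.5-fold higher in the members in each library and 5.68% lower. A gene counted as measured with at least 30 UMIs in the group that held more UMIs of it. The other macrophages had more UMIs in total in each library, so genes of low level could enter more readily as lower. Gas6, a bridging protein for the uptake of dead cells, stood at 965, 515 and 463 CPM in the members and at 265, 133 and 101 CPM in the other macrophages (Matrigel, IgG, antibody). Igf1, the insulin-like growth factor, stood at 434, 271 and 277 CPM against 122, 71.6 and 57.8. Selenop, a secreted carrier of selenium, stood at 5082, 2785 and 2860 CPM against 1882, 924 and 966. Each of these 3 genes was above the other macrophages in every library, while its level in the members was lower in both BMP2 libraries than in Matrigel. The chemokine Ccl8 went the other way across libraries: 5158, 11098 and 13297 CPM in the members, against 993, 3533 and 3271. The growth factor Pdgfc was even across libraries, at 78.5, 73.2 and 88.1 CPM against 22.6, 23.8 and 27.3. Cela1, an elastase of the chymotrypsin family, stood at 66.2, 83.0 and 98.4 CPM against 16.1, 18.1 and 25.1, and the sialic acid receptor Siglec1 at 90.5, 70.0 and 58.1 CPM against 26.3, 20.4 and 16.6. Also among the 15 genes named by the rule of size were Rnase4, Igfbp4, Wwp1, Nxpe5, Stard8, Arhgap19, Smagp and Ddx60.

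The genes lowest in the members relative to the other macrophages were led by Mmp12, the macrophage elastase, at 6.42, 8.82 and 11.7 CPM against 298, 535 and 687. Itgax, the CD11c integrin chain of dendritic cells and some macrophages, stood at 4.21, 5.71 and 3.75 CPM against 75.5, 101 and 83.3. Lpl, lipoprotein lipase, stood at 80.5, 32.2 and 50.6 CPM against 884, 517 and 445, and Cd52, a small surface glycoprotein of leukocytes, at 124, 205 and 185 CPM against 1138, 1180 and 1051. In no library did the members reach the level of the other macrophages for these 4 genes. Ear2, F7, F10, Napsa, Cytip and Hopx completed the 10. Of the MHC class II list, 8 of 9 measured genes were lower in the Matrigel members (all genes: 10.5% lower), 9 of 10 in the IgG members (14.5%) and 8 of 9 in the antibody members (14.4%). H2-Aa, a class II chain, stood at 2126, 1526 and 1243 CPM in the members against 7021, 3999 and 3563. The Matrigel members of cluster 5 were an exception, with 7297 CPM of H2-Aa, whereas those of cluster 9 had 1029 CPM. Of the recruited monocyte genes, 11 of 14, 13 of 16 and 14 of 16 were lower. The chemokine receptor Ccr2 stood at 378, 272 and 110 CPM against 1035, 796 and 544.

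Most measured complement genes were higher in the members than in the other macrophages. Of the complement list, 12 of 18 were higher in the Matrigel members (all genes: 13.7% higher), 10 of 15 in the IgG members (8.12%) and 10 of 16 in the antibody members (9%), while 2, 1 and 2 were lower. C1qa, a chain of the first complement component, stood at 4509, 4984 and 4123 CPM against 1941, 1952 and 1637. Of the scavenger and endocytic receptors, 11 of 19, 9 of 19 and 10 of 20 were higher and 2, 3 and 7 lower. The mannose receptor Mrc1 stood at 2974, 3310 and 3528 CPM against 1491, 2018 and 1763, and the folate receptor Folr2 at 823, 529 and 504 CPM against 269, 142 and 216. Both were above the other macrophages in all 3 libraries. The haemoglobin receptor Cd163 stood at 134, 332 and 581 CPM against 53.5, 251 and 325, and it was higher in both BMP2 libraries in the members and in the others. Timd4 and Vsig4, known from other resident macrophages, were not high in these cells. Timd4, a phosphatidylserine receptor, stood at 8.63, 5.71 and 2.34 CPM and Vsig4, a complement receptor, at 4.62, 2.59 and 1.41.

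By the genes that differed in all 3 libraries, the Lyve1 set was nearer to the members. Of 6590 genes measured in all 3 libraries, 0.91% were at least 1.5-fold higher in the members in each library and 1.06% lower. Within single libraries the order was less even: in IgG 12% were higher and 6.42% lower, against 8.12% and 14.5% beside the other macrophages. The rule also kept cells with 3 or more of the 5 genes out of the other macrophages but not out of the Lyve1 set. Lyve1, Fcna and Cd209f are left out as rule genes. The fractalkine receptor Cx3cr1 stood at 69.6, 259 and 50.6 CPM in the members and at 15.4, 65.7 and 9.74 CPM in the Lyve1 set. Cd72, an inhibitory C-type lectin, stood at 52.6, 147 and 126 CPM against 23.4, 17.5 and 36.9, and Fcrls, an Fc receptor-like protein, at 1680, 1068 and 768 CPM against 936, 580 and 225. Gpr65, Itgb5, Clec12a, Plbd1, Cxcl16 and Fcgr4 were likewise higher in each library. The members were lower in Retnla, a secreted resistin-like protein induced by IL-4, at 1181, 150 and 257 CPM against 10713, 2931 and 3197. The chemokine Ccl6 stood at 1000, 1070 and 1877 CPM against 3622, 4749 and 6572, and the endothelin receptor Ednrb at 210, 143 and 97.5 CPM against 685, 765 and 414. Ltc4s, leukotriene C4 synthase, stood at 100, 46.7 and 75 CPM against 408, 228 and 574. These 4 genes were lower in the members than in the Lyve1 set of the same library without exception. MHC class II genes separated the sets in the other direction than in the comparison with the other macrophages: 5 of 9 measured were higher in the members in Matrigel (all genes: 5.01%), 8 of 9 in IgG (12%) and 3 of 8 in the antibody library (8.57%). None was lower, against 4.3%, 6.42% and 5.88% of all genes. Of the scavenger and endocytic receptors, by contrast with the other macrophages, 10 of 20, 10 of 16 and 12 of 20 were lower in the members than in the Lyve1 set, among them Folr2 and Cd163 in each library, and 1, 3 and 1 were higher.

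**Figure D3:**
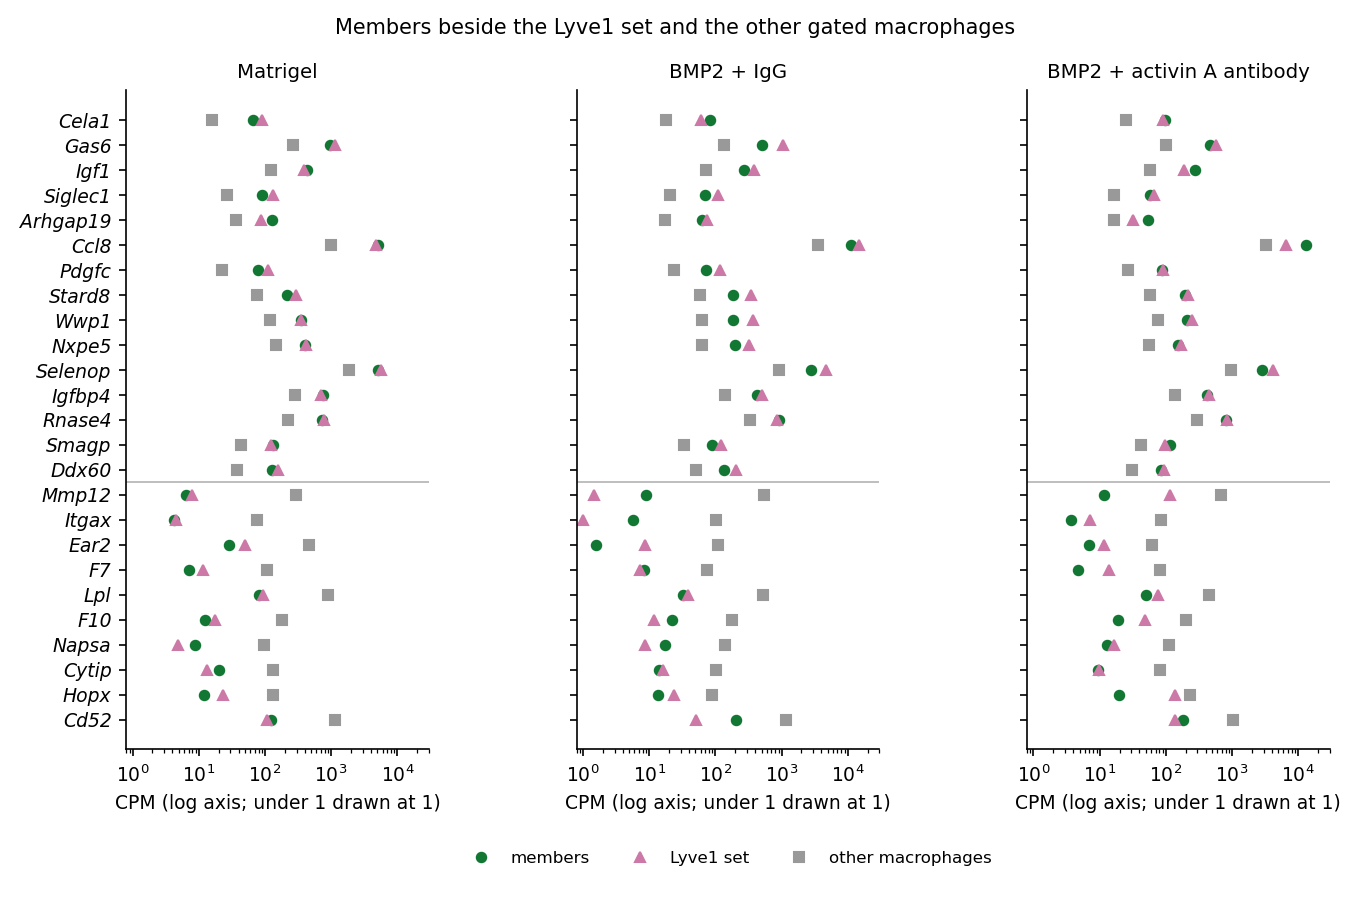
Levels (x axis, CPM of summed UMIs, log axis; values under 1 drawn at 1) of the 25 genes named for members against other gated macrophages, in the 3 libraries. Circles are members, triangles the Lyve1 set and squares the other macrophages; above the grey line the circles lie right of the squares in every library, below it left, as the choice of genes requires.

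Across the libraries, the members of BMP2 masses with IgG had more RNA of wound, glycolysis and interferon genes and less of cell cycle and resident genes than the members of Matrigel masses. Of 9244 measured genes, 7% were at least 1.5-fold higher and 13.1% at least 1.5-fold lower in the IgG members, with a median log2 ratio of -0.07. A gene entered by its UMIs in the group that held more of them. The members had 4982944 UMIs in Matrigel and 1927206 in IgG. Genes of low level could therefore enter more readily as lower than as higher. With at least 20 CPM asked for, 7.49% of 6593 genes were higher and 8.65% lower. Under scaling by the median ratio, 44.4% of the called genes were higher in place of 34.7%. Arg1, the arginase of wound and IL-4-stimulated macrophages, stood at 34.1 CPM in the Matrigel members, 913 in the IgG members and 1327 in the antibody members, 26.8-fold higher in IgG than in Matrigel (22.9 to 31.5). Arg1 was at 7.45 and 7.02 CPM in the Matrigel and IgG members of cluster 9 (19 and 2 UMIs), and at 2114 and 551 CPM in the IgG members of clusters 10 and 15. The Matrigel members of cluster 8 had 161 CPM of Arg1 (117 UMIs), and those of cluster 5 had 3.35. Among the clusters read, its highest levels were thus found in members of clusters 10 and 15, which were almost without Matrigel cells. Fabp5, a fatty acid-binding protein, stood at 242, 1245 and 1859 CPM, 5.15-fold higher in IgG (4.81 to 5.53). Lgals3, the lectin galectin-3, stood at 202, 819 and 1115 CPM. Of the wound and lipid list, 11 of 16 measured genes were higher and 1, Lpl, lower, with a median of 1.10. In cluster 9 it was 4 higher and 2 lower of 9 measured. The shift was not limited to the members. In the other macrophages 13 of 18 were higher and 2 lower (all genes: 11.9% and 8.86%). In the Lyve1 set 8 of 16 were higher and 3 lower (all genes: 6.93% and 14.3%).

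Ctla2a, an inhibitor of cysteine proteases, had the furthest ratio, at 3.81, 122 and 18.7 CPM, 32.0-fold higher in IgG than in Matrigel (20 to 54.1). It was high in the IgG library alone, and 10 cells held 51.1% of its UMIs there. T and NK cell markers were also highest in the IgG members, where Gzma and Cd4 reached 10 CPM. In the IgG members of cluster 15 Ctla2a stood at 289 CPM and Gzma at 0; the part of these markers over all members was not tested. Rnase2a, a secreted ribonuclease, stood at 17.3, 327 and 248 CPM, with 775 CPM in the IgG members of cluster 10 and 11.3 in those of cluster 15. Mmp14, a membrane-bound protease that cuts collagen, stood at 8.23, 140 and 144 CPM and Pmepa1, a membrane protein induced by TGF-beta that dampens SMAD signalling, at 31.5, 200 and 82.9 CPM. Both genes were low in Matrigel members and both are also abundant in collagen-high cells, which had 575, 824 and 573 CPM of Mmp14 and 609, 718 and 472 CPM of Pmepa1. The 15 mesenchymal markers summed to 356, 389 and 106 CPM in the members; their part in these results was not tested. Ccl24, a chemokine for eosinophils, stood at 83.1, 730 and 238 CPM. The 10 IgG members richest in it held 49.7% of its UMIs. In cluster 9 the IgG members were below the Matrigel members in Ccl24 (38.6 against 71.3 CPM); Mmp14 had too few UMIs there to compare, at 1 and 16. Complement C3 stood at 25.1, 148 and 181 CPM, the proteoglycan core protein Srgn at 120, 622 and 626, and the interferon-induced GTPase Gbp2 at 43.7, 208 and 194. In cluster 9 Srgn stood at 59.7 CPM in the IgG and 75.2 in the Matrigel members, with overlapping intervals, whereas Gbp2 was higher in IgG there too (200 against 47.8).

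Glycolysis and interferon-stimulated genes were higher as groups. Of the hypoxia and glycolysis list, 15 of 19 measured genes were higher in IgG and none lower, with a median log2 ratio of 0.89. In the other macrophages 12 of 20 were higher, where 11.9% of all genes were higher and 8.86% lower, and in the Lyve1 set 7 of 19, where 6.93% were higher and 14.3% lower. Pkm, the pyruvate kinase of glycolysis, stood at 659, 1283 and 1578 CPM, and Hif1a, the oxygen-sensitive transcription factor, at 62.8, 156 and 157. Pkm hardly differed within cluster 9, at 529 and 576 CPM, where 6 of 18 measured genes of the list were higher and 1 lower. Of the interferon-stimulated genes, 11 of 15 were higher in IgG and none lower, with a median of 0.83. They were also higher outside the members: 14 of 16 in the other macrophages, with a median of 1.31, and 8 of 16 in the Lyve1 set, with none lower in either. Irf7, a transcription factor of the interferon response, stood at 91.5, 175 and 120 CPM. It was higher within cluster 9 as well, at 172 CPM in the IgG against 102 in the Matrigel members, and 8 of 14 measured genes of the list were higher there and 1 lower. Of the chemokines, 7 of 13 were higher and 1, Cxcl2, lower, with a median of 0.61. In cluster 9 it was 6 and 1 of 11, in the other macrophages 14 and 5 of 19, and in the Lyve1 set 2 and 3 of 11. Ccl8 stood at 14307 CPM in the IgG and 6901 in the Matrigel members of cluster 9, and Ccl7 at 205, 671 and 871 CPM over all members. Ccl2, the main ligand of Ccr2, stood at 293, 594 and 955 CPM.

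Genes of the resident programme differed unequally. Of the resident macrophage list, 8 of 20 were lower in IgG and 3 higher, with a median of -0.44. In cluster 9, 4 of 20 were lower and none higher, a share near that of all genes. In the other macrophages 10 of 20 were lower and 4 higher, and in the Lyve1 set 2 of 20 were lower and 5 higher. The coagulation factor chain F13a1 stood at 2791, 1392 and 1405 CPM, 2.00-fold lower in IgG than in Matrigel (1.92 to 2.09). Within cluster 9 the gap was smaller, at 2991 CPM in Matrigel and 2412 in IgG, and Selenop stood at 5626 and 5484 CPM there. Pf4, a platelet-type chemokine of tissue macrophages, stood at 2342, 2125 and 3154 CPM, and the transcription factor Maf at 1745, 1734 and 1440. These 2 differed by less than 1.5-fold between IgG and Matrigel. Of the scavenger receptors 4 of 19 were higher, among them Cd163 and Msr1, a receptor for modified lipoproteins at 154, 307 and 245 CPM, and 6 lower, among them Folr2 and Clec10a. Clec10a, a galactose-type lectin, stood at 1138 CPM in Matrigel, 471 in IgG and 374 in the antibody library. It was 1403 and 1071 CPM in cluster 9 but 240 and 124 in the IgG members of clusters 10 and 15. Of the recruited monocyte genes, 7 of 12 were higher and 1 lower, with a median of 1.02, against 1 and 0 of 8 in cluster 9. In the other macrophages it was 8 and 3 of 16, and in the Lyve1 set 2 and 3 of 11. Fibronectin, Fn1, stood at 362, 871 and 487 CPM, and it too is abundant in collagen-high cells, at 8695, 10170 and 9266 CPM. The cytokine receptor and target genes of the type 2 response had 8 of 16 higher and 2 lower (in cluster 9, 1 and 2 of 9). In the other macrophages 12 of 18 were higher and 2 lower, and in the Lyve1 set 5 of 12 and 1. The targets went both ways in the members: Arg1, Ccl24 and Pdcd1lg2 higher, Retnla lower. Pdcd1lg2, a ligand of the checkpoint receptor PD-1, had 1 UMI in the Matrigel members, 0.201 CPM, and stood at 52.9 and 58.1 CPM in the IgG and antibody members; within clusters it was at 148 and 138 CPM in cluster 10 and at 2.26 and 0 in cluster 15.

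Most cell cycle genes were lower. Of the 22 measured, 20 were lower in the IgG members and none higher, with a median log2 ratio of -1.20. In cluster 9, 8 of 13 were lower and none higher, and with at least 4 of the 5 rule genes asked for, 7 were lower and 1 higher. That last setting measured 6714 genes in all in place of 9244, with 16.7% lower and 8.45% higher. How many cell cycle genes it measured is not given here, so its count cannot be set against the 22. Top2a, the topoisomerase of dividing cells, stood at 113, 36.3 and 46.4 CPM and Mki67, a proliferation marker, at 111, 45.7 and 52.9. Few cells carried them: 10 members held 28.0% of the Top2a UMIs in Matrigel and 90.0% in IgG. In the Lyve1 set all 22 measured genes were lower in IgG, and in the other macrophages 5 of 22, against the shares of all genes given above for these classes. Further genes named as lowest were Retnla (1181, 150 and 257 CPM, 7.87-fold lower in IgG, with 91.0% of its IgG UMIs in 10 cells), the class II chain H2-Eb1 (1478, 441 and 829 CPM), complement C4b (545, 191 and 79.6), the immediate early gene Egr1 (135, 48.3 and 98.9), and Nhsl2, Rnaset2a and Arhgap18. Retnla was at 1206 CPM in the Matrigel members of cluster 5 and 126 in those of cluster 9. C4b did not differ in cluster 9, at 553 and 523 CPM, and was at 69.5 and 81.4 CPM in the IgG members of clusters 10 and 15.

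**Figure D4:**
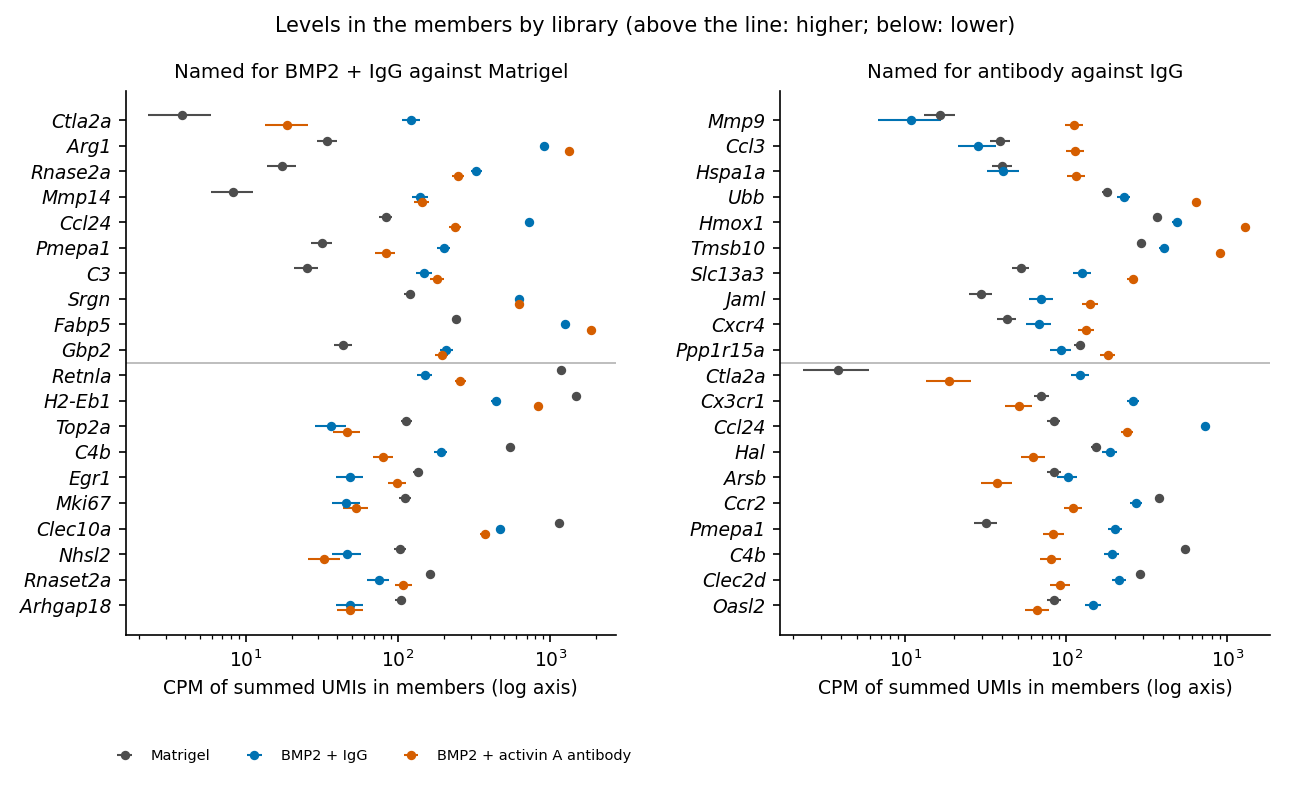
Levels in the members (x axis, CPM of summed UMIs, log axis) of the 20 genes named for IgG against Matrigel (left) and the 20 for antibody against IgG (right), with 1 point per library and exact Poisson 95% intervals. Arg1, Fabp5 and Srgn are low in Matrigel and high in both BMP2 libraries, while Ctla2a, Ccl24, Pmepa1 and Cx3cr1 are highest in the IgG library.

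With the activin A antibody, the members had less RNA of interferon-stimulated genes and more of immediate early and chemokine genes than with IgG. This comparison shares the IgG library with the one above. Of 7287 measured genes, 4.13% were at least 1.5-fold higher and 9.17% lower in the antibody members, with a median log2 ratio of -0.08. Under scaling by the median ratio, 46.1% of the called genes were higher in place of 31.1%. Of the interferon-stimulated genes, 10 of 15 were lower and none higher, with a median of -0.71. Ifit3, an interferon-induced protein that binds viral RNA complexes, stood at 30.3, 56.6 and 11.2 CPM, and Isg15, a ubiquitin-like protein, at 64.4, 144 and 84.8. Oasl2, a relative of the oligoadenylate synthases, stood at 83.9, 147 and 65.6. These genes were highest in the IgG library. Within clusters 10 and 15, 9 of 14 measured genes of the list were lower and none higher: Oasl2 was at 146 CPM with IgG and 81.5 with antibody in cluster 10, and at 70.1 and 49.5 CPM in cluster 15. In the other macrophages 11 of 16 were lower (all genes: 4.77% higher and 9.22% lower), and in the Lyve1 set 7 of 15 (9.79% higher and 13.9% lower).

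Of the immediate early and heat shock genes, 11 of 20 were higher with the antibody and none lower, with a median of 0.60. The nuclear receptor Nr4a1 stood at 52.2, 18.7 and 49.2 CPM and the stress factor Atf3 at 119, 98.6 and 190. Hspa1a, an inducible heat shock protein, stood at 39.9, 40.5 and 115 CPM, and Ppp1r15a, which restarts translation after stress, at 121, 92.4 and 180. Ubb, a ubiquitin gene, stood at 179, 226 and 637 CPM, 2.82-fold higher with the antibody (2.53 to 3.14). This was not limited to the members. Ubb went from 222 to 675 CPM in the other macrophages, from 203 to 634 in the Lyve1 set and from 295 to 617 in collagen-high cells, and 12 of 20 genes of the list were higher in the other macrophages and 14 of 20 in the Lyve1 set. Tmsb10, an actin-binding thymosin, stood at 290, 404 and 901 CPM in the members and was likewise higher with the antibody in the other macrophages (922 and 1941) and in collagen-high cells (1706 and 2624).

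Within cluster 15, Hmox1, Fth1 and Ccl3 were higher in the antibody members than in the IgG members. For the antibody members, levels within clusters were read in clusters 10 and 15 alone, with 84 and 129 members. Of the iron and heme list, 4 of 15 were higher and 1 lower over all members, with a median of 0.31. In the other macrophages 3 of 16 were higher and 1 lower, and in the Lyve1 set 4 of 15 and 2. Hmox1 was among the higher genes in both. Hmox1, haem oxygenase, which breaks down haem, stood at 367, 485 and 1284 CPM, 2.65-fold higher with the antibody (2.46 to 2.86). In cluster 10 it was 587 CPM with IgG and 665 with antibody, and in cluster 15 it was 454 and 1920. The 10 antibody members richest in it held 46.6% of its UMIs. Fth1, the ferritin heavy chain, stood at 5241, 7456 and 11420 CPM, and in cluster 15 at 9413 with IgG and 17047 with antibody. Red cell markers summed to 11, 97 and 143 CPM in the members. In cluster 15 the haemoglobin chain Hbb-bs was at 251 CPM with IgG and 18.4 with antibody; the part of red cell RNA over all members was not tested. Of the chemokines, 8 of 14 were higher and 2 lower over all members, with a median of 0.68. This was not limited to the members. In the other macrophages 8 of 19 were higher and 3 lower (all genes: 4.77% and 9.22%). In the Lyve1 set 6 of 10 were higher and 1 lower (all genes: 9.79% and 13.9%). Ccl3, a chemokine that attracts monocytes and lymphocytes, stood at 38.7, 28.0 and 113 CPM; it was 26.1 and 15.6 CPM in cluster 10 and 38.4 and 187 in cluster 15. Basophil and mast cell markers summed to 0.803, 3.63 and 76.4 CPM, with Mcpt8, Hdc and Gata2 above 10 CPM in the antibody members and Tpsb2, Mcpt4 and Fcer1a at 0 in all 3. In the antibody members of cluster 15, Mcpt8, Hdc and Gata2 were at 0. Cluster 22, whose leading genes include Mcpt8, Gata2, Hdc, Il6 and Ccl3, held 3 antibody members and no members of the other libraries. The part of these cells in the levels over all members was not tested. Mmp9, the gelatinase B, stood at 16.5, 10.9 and 112 CPM, with 71.5% of its antibody UMIs in 10 cells. Neutrophils also make Mmp9. The 9 neutrophil markers, Mmp9 among them, summed to 63.2, 102 and 194 CPM in the members. Csf3r alone, besides Mmp9, reached 10 CPM in any library, while Ly6g, Camp and Ngp were at 0 in all 3. The part of neutrophil RNA in the Mmp9 level was not tested. Other genes named as higher were Slc13a3, a carrier of dicarboxylates, at 52.0, 125 and 257 CPM, the adhesion molecule Jaml at 29.3, 69.5 and 141, and the chemokine receptor Cxcr4 at 42.5, 67.5 and 132.

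Among the genes lower with the antibody, Cx3cr1 and Ccr2 are receptors by which monocytes and macrophages are placed in tissue. Cx3cr1 stood at 69.6, 259 and 50.6 CPM, 5.13-fold lower with the antibody than with IgG (4.16 to 6.37). In cluster 15 it went from 662 CPM with IgG to 104 with antibody, and in cluster 10 from 62.5 to 3.60. Ccr2 went from 325 to 102 CPM and from 85.1 to 12.0 in the same clusters. Both receptors were thus lower with the antibody within each cluster. They were also lower outside the members: Cx3cr1 went from 185 to 77.7 CPM in the other macrophages and from 65.7 to 9.74 in the Lyve1 set, and Ccr2 from 796 to 544 and from 320 to 153. Ctla2a was 6.51-fold lower (4.64 to 9.34). Ccl24 was 3.07-fold lower (2.77 to 3.41), with 1719 CPM in IgG and 203 in antibody members of cluster 10, but among members with at least 4 of the 5 rule genes it was 1.5-fold higher with the antibody. Hal, histidine ammonia-lyase, stood at 154, 186 and 62.3 CPM; in the members of clusters 10 and 15 together it was 1.32 times the IgG level with the antibody, and its 590 CPM in the IgG members of cluster 9 had no counterpart, since 7 antibody members lay there. The lysosomal sulfatase Arsb stood at 83.5, 102 and 37.0 CPM, C4b at 545, 191 and 79.6, and the lectin-like ligand Clec2d at 287, 212 and 90.9. Arg1, Fabp5 and Mrc1 differed by less than 1.5-fold between antibody and IgG. Of the glycolysis list, 1 of 19, Hk2, was lower and none higher.

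The genes of the activin pathway itself were few in these cells. Activins bind type 2 receptors that engage type 1 receptors such as Acvr1b, which act through SMAD2 and SMAD3; BMPs act through SMAD1 and SMAD5 and induce the Id genes. Inhba, the gene of the activin A subunit, stood at 0.401, 5.19 and 3.75 CPM in the members and at 22.4, 817 and 640 CPM in collagen-high cells. Acvr1b stood at 27.5, 28.0 and 15.5 CPM, Acvr1 at 13.6, 11.9 and 9.37, and Acvr2a at 6.62, 6.75 and 11.2. Tgfb1, the latent growth factor of macrophages, stood at 238, 248 and 281 CPM and its receptor Tgfbr2 at 279, 185 and 185. Of the pathway list, 1 of 18 measured genes was higher in IgG than in Matrigel, the inhibitory Smad7 (8.63, 31.1 and 25.8 CPM), and 3 were lower, with a median of -0.22. Between antibody and IgG, 1 of 14, Gdf15, was higher and 2, Acvr1b and Fstl1, lower, with a median of -0.13. These shares lie near those of all genes in each comparison.

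Of the SMAD target list, 5 of 13 measured were higher in IgG than in Matrigel (Id3, Smad7, Pmepa1, Skil and Ccl24) and 1 lower, with a median of 0.41; in the other macrophages it was 12 of 19. Within cluster 9 none of 11 measured was higher and 3 were lower, a share near that of all genes there, and Pmepa1 stood at 27.0 and 35.1 CPM there. Between antibody and IgG, 1 of 13, Tgif1, was higher and 2, Pmepa1 and Ccl24, lower, with a median of -0.10. Pmepa1 was 2.42-fold lower with the antibody (2.02 to 2.90). It was lower within cluster 10, at 168 and 89.9 CPM, and within cluster 15, at 362 and 86.4 CPM. It was also lower in the other macrophages (160 and 58.0 CPM), the Lyve1 set (99.3 and 39.0) and the collagen-high cells (718 and 472), and mesenchymal markers in the members were lower with the antibody, as given above.

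**Figure D5:**
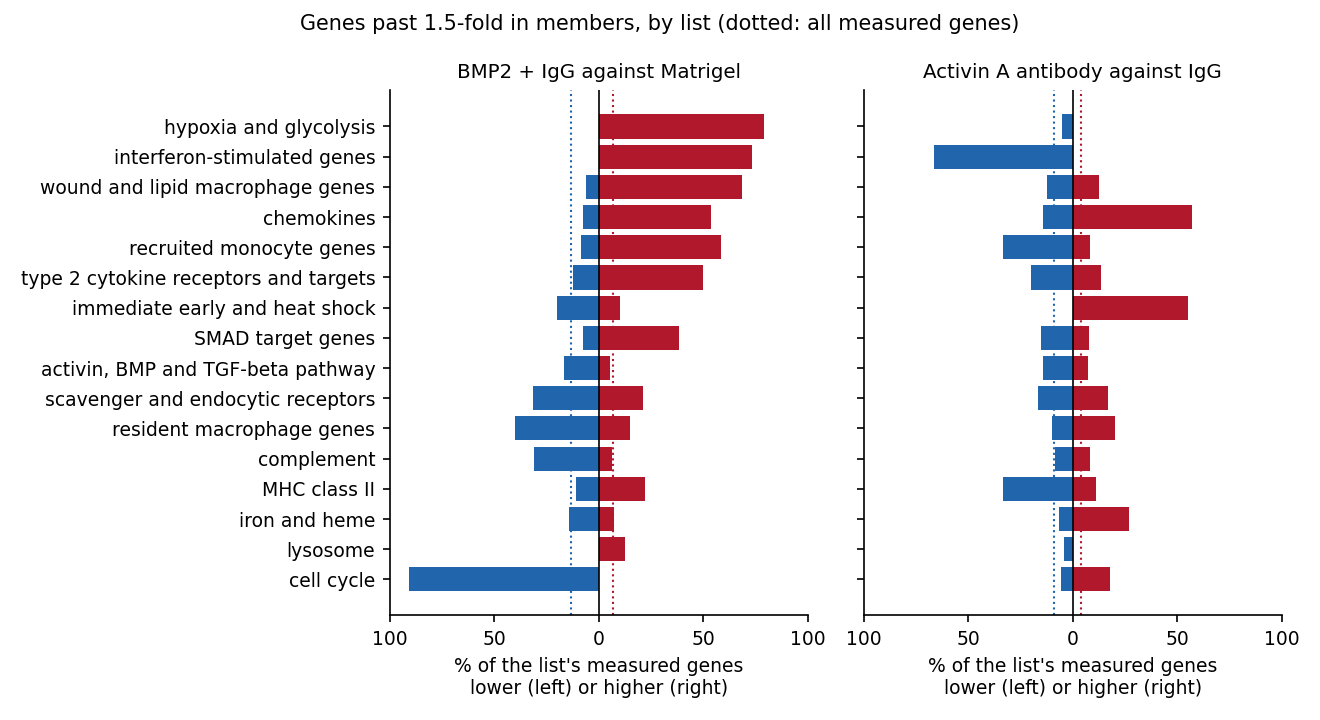
Percentage of the measured genes of each list at least 1.5-fold lower (left of 0) or higher (right of 0) in the members, for IgG against Matrigel and for antibody against IgG; dotted lines give the percentages over all measured genes. Hypoxia and glycolysis genes stand out to the right and cell cycle genes to the left in the first panel, and interferon-stimulated genes to the left and immediate early and chemokine genes to the right in the second.

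Several named genes have near-identical relatives (Ctla2a, Rnase2a, C4b, Hspa1a, Ubb, Ccl3, the Cd209 and Ifit families), and the sources used here do not say how reads shared between copies were counted, so their levels are uncertain. Scrublet's automatic threshold called 2, 3 and 4 cells as doublets, too few to have worked. The 681, 284 and 285 cells with the highest doublet scores held 7.08%, 3.08% and 3.23% of the members, and without them all 65 named ratios kept their direction.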

How the data were processed

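Per the labels' protocols, cells of ectopic masses were profiled with 10x 3' v3 chemistry. The authors' processing used Cell Ranger 3.0.2 and mm10, per the submitters' processing notes. The deposited files held UMI counts per gene and barcode, raw and not normalized, per the file headers. The sources used here do not name the annotation release or the cell calling settings. Gene positions come from GENCODE on GRCm38 and matched 81 of 82 genes looked up.

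The rule was applied to every cell, and for each class and library the UMIs of its cells were added up and scaled to CPM. A gene was measured with at least 30 UMIs in the group that held more UMIs of it, which need not be the group of higher level. It counted as higher or lower past a ratio of 1.5. Where total depth differed between groups, genes of low level could enter more readily through the deeper group. List medians used log2 ratios with 1 UMI added. Shares with a UMI were read at 1000 UMIs per cell. Clustering used scanpy 1.11.5 with 2000 variable genes, 30 principal components, 15 neighbours and Leiden resolution 1. The script was tested on simulated data. Members' total depth was 4982944, 1927206 and 2134370 UMIs.

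Genes named had one of the 10 highest or 10 lowest ratios, at a level of at least 100 CPM (members against other macrophages: 15 and 10, at 50 CPM or more in every library). Rule, gate, mitochondrial, ribosomal, haemoglobin, immunoglobulin and predicted genes were left out, as were Xist, Tsix and a set of Y-linked genes. Other X-linked genes were kept. Genes under 10% of their level in collagen-high, Cd3e-positive or Cd79a-positive cells were also left out. Beside these stand examples from 32 lists of 478 genes. Members and lists were chosen with earlier results of these data known. Some items are not reported here.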

Additional observations from a re-analysis of the deposited data

How the results depend on the processing

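No paired analysis was possible because each group had 1 library, and for the same reason no library could be left out. The share of members (Matrigel, IgG, antibody) was 7.52%, 1.84% and 1.88% with at least 4 of 5 rule genes, 13.5%, 8.07% and 5.60% with none of Lyve1, Fcna and Cd209f, 19.3%, 5.99% and 3.18% at 2000 UMIs, and 25.6%, 12.7% and 10.1% with at least 2 UMIs of Csf1r plus Adgre1. Against Matrigel, 2354 genes were higher and 3904 lower with no filter, 321 and 570 with at least 100 UMIs, and 570 lower with at least 20 CPM. Between antibody and IgG, 2314 were higher and 3014 lower with no filter, 113 and 174 with at least 100 UMIs, 195 higher with the rule read at 2000 UMIs, and 275 lower with at least 4 of 5 rule genes. Members against other macrophages gave 601 higher and 1463 lower with no filter. The number of genes tested and of cells changes with these settings. Of the calls, 46.4% were higher against Matrigel at 20 CPM and 24.5% within cluster 9, and between antibody and IgG 46.7% with at least 4 of 5 rule genes, 43.4% with no filter and 41.6% within clusters 10 and 15. Within cluster 9 the IgG over Matrigel ratio was 0.943 for Arg1, 0.560 for Mmp14, 0.542 for Ccl24 and 0.793 for Srgn; Arg1 (19 and 2 UMIs) and Mmp14 (16 and 1) were under the count minimum there. The antibody over IgG ratio was 1.5 for Ccl24 with at least 4 of 5 rule genes and 1.32 for Hal within clusters 10 and 15. The cause was not tested. The 65 named ratios kept their direction with the rule read at 2000 UMIs, median-ratio scaling, equally weighted cells, a depth window of 2000 to 10000 UMIs and doublet removal. Of the list counts, 41 of 80 moved by over 1.5 times with at least 4 of 5 rule genes, 28 of 40 in cluster 9 and 16 of 40 in clusters 10 and 15. The settings by cluster, depth window and 20 CPM were chosen after seeing the data. In 279 to 1370 cells, genes under 30 UMIs in both groups compared entered no count of calls, except with no filter.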
